A study of Mus musculus with 18 samples.

Results

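The 10 genes described here handle fatty acids on their way into and through the cell, in liver RNA of male C57BL/6 mice on 18 one-colour Agilent arrays. They are *Cd36*, *Slc27a1*, *Slc27a2*, *Slc27a4*, *Lpl*, *Vldlr*, *Fabp1*, *Fabp2*, *Fabp4* and *Fabp5*, chosen by name as the fatty acid uptake and binding genes, and they are 10 of the 21153 genes that the arrays' probes could be matched to. All 12 of their probes were read, of 39429 on the array, with 2 each for *Lpl* and *Vldlr*. All 12 passed the filter on dim probes, 10 of them well above background on every array and the *Fabp5* probe and the dimmer *Vldlr* probe on 17 of 18. A spot marked as an outlier was not counted, and *Fabp5* had such a spot, with an intensity of 7332, on 1 array.

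The mice formed 4 groups. From an age of 6 weeks LFD mice (n = 4) ate a diet in which fat gave 10% of the energy, and HFD mice (n = 4) one in which it gave 60%. LFD MTX50 (n = 5) and HFD MTX50 mice (n = 5) were given the same diets and, after 10 weeks of feeding, 5 intraperitoneal injections of methotrexate at 50 mg/kg, and livers were taken 1 week after the last injection. Methotrexate is an antifolate that blocks dihydrofolate reductase. Untreated mice are labelled as receiving no treatment, with no vehicle injection described, and every sample is a piece of whole liver from 1 mouse, so hepatocytes and all other liver cells were measured together. All 8 hepatocyte markers, *Alb* and *Apoa1* among them, were well above background on all 18 arrays. Levels below are log2 intensities relative to the 75th percentile of the same array, so that a level of 1 is a doubling over that percentile, and differences are between group means on that log2 scale. Arrays correlated with the others of their group at a mean r of 0.979 to 0.993 over probes.

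Fatty acids reach the liver free in plasma, bound to albumin, or in the triglycerides of lipoproteins. *Lpl* encodes lipoprotein lipase, which releases fatty acids from those triglycerides at the vessel wall, and *Vldlr* encodes a receptor that binds triglyceride-rich lipoproteins. CD36 is a membrane glycoprotein that promotes fatty acid uptake, and the Slc27a family (FATP proteins) combines uptake with activation to acyl-CoA. Inside the cell the small FABP proteins bind fatty acids and carry them between membranes and organelles, with FABP1 the abundant form of hepatocytes, FABP2 best known from the intestine, FABP4 from adipocytes and macrophages, and FABP5 from skin and many other tissues. Several of these genes are targets of the nuclear receptors PPARα and PPARγ, which are themselves activated by fatty acids.

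The diet comparison separated 2 members from the rest. *Cd36* rose and *Fabp5* fell in HFD livers, while the other 8 members did not pass the test. *Fabp2* fell with methotrexate on both diets, and *Fabp1*, *Fabp5* and *Slc27a1* fell with it on LFD. A call here means an adjusted p below 0.05 in limma over all probes kept.

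**Figure D1:**
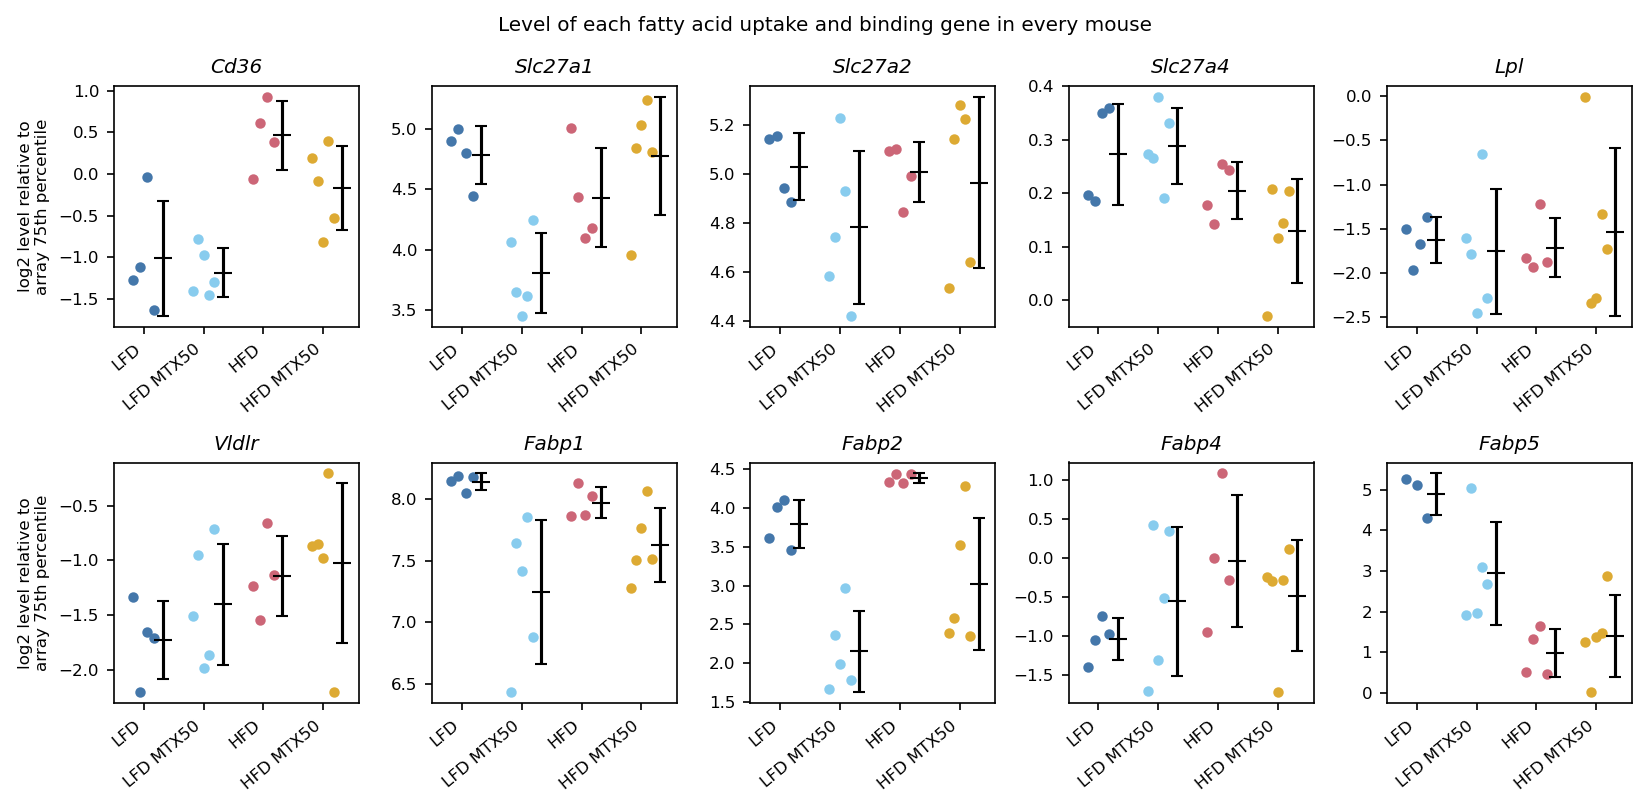
Level of each of the 10 genes in every mouse (vertical axes, log2 relative to the array's 75th percentile, with a scale of its own in each panel), by group (horizontal axes). Each dot is 1 mouse and the black bar and whiskers are the mean ± SD. *Fabp5* has 3 LFD mice because 1 spot was marked as an outlier. *Fabp2* in HFD sits between 4.32 and 4.44, above all LFD mice, and *Fabp5* in HFD sits below all LFD mice shown. HFD and LFD did not overlap in 40.3% of all genes.

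In HFD vs LFD, which asks what the high fat diet did to untreated livers, 2 of 10 members were called, against 28.3% of all 19597 genes tested. One was higher (18% of all genes) and the other lower (10.4%). The median difference over the members was -0.04, beside 0.08 over all genes. The share of members called was thus no higher than that of genes in general. Both were past 2-fold as well, which 2.86% of all genes were.

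*Cd36* stood at -1.27, -1.11, -0.03 and -1.63 in the 4 LFD mice and at -0.06, 0.61, 0.92 and 0.38 in the 4 HFD mice. The groups met only at LFD mouse 3, which was level with the lowest HFD mouse. The difference was 1.48 ± 0.32 (SE), 2.78-fold higher in HFD (limma, adjusted p = 0.00628), while the exact 2-sided permutation test of the means gave p = 0.0571, with 0.0286 the smallest p that 4 against 4 mice allow. In these bulk samples more cells of a type and more RNA per cell cannot be told apart. Leaving out any array kept the call, with differences from 1.27 to 1.80, but it was lost where slide entered as a random effect (adjusted p = 0.0707) and with normexp background modelling (adjusted p = 0.141).

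The same diet comparison among treated mice shares no animal with the first. In HFD MTX50 vs LFD MTX50 2 of 10 members were called, both higher and none lower, against 7.37% of all genes higher, 8.75% lower and 16.1% in either direction. Past 2-fold as well there was 1, against 2.56%. *Cd36* was 1 of them. Its levels were -1.40, -0.78, -0.97, -1.45 and -1.30 in LFD MTX50 and 0.19, -0.09, -0.82, 0.40 and -0.53 in HFD MTX50. Only HFD MTX50 mouse 3 lay among the LFD MTX50 mice, just below the highest of them. The difference was 1.01 ± 0.29 (SE), 2.02-fold (adjusted p = 0.0267, exact permutation p = 0.0159). It did not stay below the threshold without LFD MTX50 mouse 1 (adjusted p = 0.0547), LFD MTX50 mouse 4 (0.052) or HFD MTX50 mouse 4 (0.0727). Adjusted p was 0.167 where slide was a random effect and 0.556 with normexp background modelling.

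With methotrexate the mean of *Cd36* in HFD livers lay between those of the untreated groups. HFD MTX50 averaged -0.17 ± 0.50 (SD, n = 5) and HFD 0.46 ± 0.41 (SD, n = 4), a difference of -0.63 with a 95% interval from -1.27 to 0.01 (adjusted p = 0.165). On LFD the difference was -0.17, with an interval from -0.81 to 0.47 (adjusted p = 0.688). The treatment effects on the diets differed by -0.46 (interval -1.37 to 0.44, adjusted p = 0.432). In order of mean level *Cd36* ran HFD, HFD MTX50, LFD, LFD MTX50, and neighbours in that order that were tested (HFD and HFD MTX50, LFD and LFD MTX50) did not differ beyond the test.

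*Fabp5*, a binding protein of skin and many other tissues, moved furthest of the members with diet. It stood at 5.25, 5.10 and 4.31 in LFD mice 2, 3 and 4 and at 0.53, 1.34, 1.64 and 0.46 in the HFD mice. Every HFD mouse lay below these LFD mice, and in 40.3% of all genes HFD and LFD did not overlap. The spot of LFD mouse 1 was marked as an outlier by the scanner software and left out. Its level of 2.11 lay between the groups. The difference was -3.90 ± 0.67 (SE), 14.9-fold lower in HFD (adjusted p = 0.00333, exact permutation p = 0.0286, the smallest that 4 against 3 mice allow). With the marked spot kept it was 9.22-fold lower (adjusted p = 0.00792), so the size but not the call rested on that spot. The call was lost with normexp background modelling (adjusted p = 0.0831).

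In LFD MTX50 mice *Fabp5* was scattered, at 1.92, 5.04, 1.97, 3.09 and 2.67. Mouse 2 was at the level of the LFD mice and the other 4 were lower. The difference from LFD was -1.95 ± 0.64 (SE), 3.87-fold (adjusted p = 0.0344, exact permutation p = 0.0714). That call was lost with the marked spot kept (-1.26, 2.39-fold, adjusted p = 0.176), where slide was a random effect (0.178) and with normexp background modelling (0.102). It was also lost without any 1 of LFD mice 2 and 3 and LFD MTX50 mice 1, 3 and 5 (adjusted p from 0.0556 to 0.107).

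In HFD MTX50 mice *Fabp5* stood at 1.26, 0.02, 1.39, 1.47 and 2.88. Mouse 2 lay below all HFD mice, mouse 5 above them and the others within their range. The difference from HFD was 0.41 (interval -0.85 to 1.67, adjusted p = 0.663), with -0.41 on the slide that held both groups and 0.98 on other slides. Against LFD MTX50 it was -1.54 (interval -2.72 to -0.35, adjusted p = 0.0682), the same sign as in untreated mice but short of the threshold. The treatment effects on HFD and LFD differed by 2.36 ± 0.88 (SE, adjusted p = 0.0544), also short of it. Over the 17 arrays with a value the genes most like *Fabp5* were *Pdzk1ip1* (r = 0.92), *Sh3bp5* (0.89) and *Calm2* (0.88). *Pdzk1ip1*, a small membrane protein, fell by 2.46 in HFD vs LFD (adjusted p = 0.0105).

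**Figure D2:**
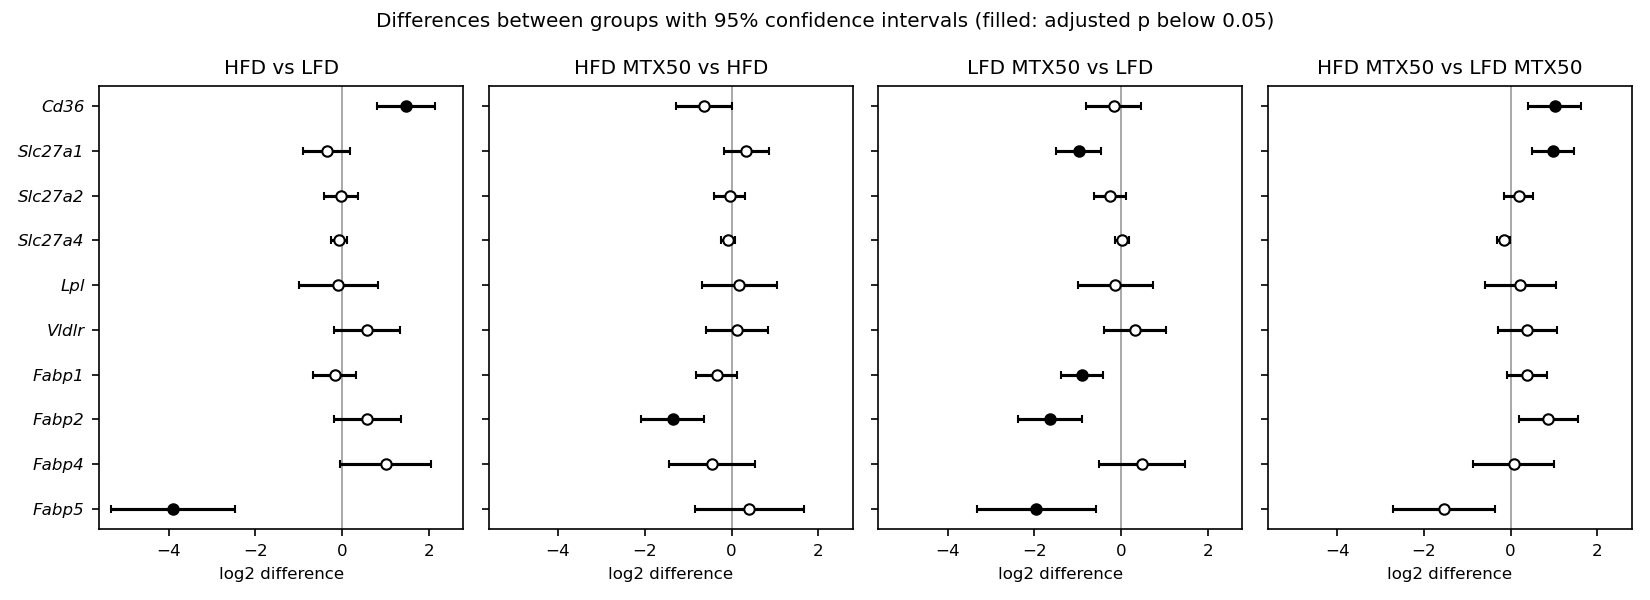
Difference of each gene in the 4 comparisons between groups (horizontal axes, log2 scale). Points are the limma estimates, lines their 95% confidence intervals, and filled points have an adjusted p below 0.05. The widest shift is that of *Fabp5* in HFD vs LFD at -3.90, and the intervals of *Slc27a4* are the narrowest.

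In HFD MTX50 vs HFD, which asks what methotrexate did to fatty livers, 1 of 10 members was called, against 11% of all genes, and it was lower (6.13% of all genes). In LFD MTX50 vs LFD 4 of 10 were called, all lower, against 28.1% of all genes in either direction and 10.5% lower. Past 2-fold as well were 1 on HFD (0.975% of all genes) and 2 on LFD (4.75%). The member medians were -0.06 on HFD and -0.21 on LFD, beside -0.04 and 0.11 over all genes. *Fabp2* was the member called in both.

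*Fabp2* stood at 4.33, 4.44, 4.32 and 4.43 in HFD and at 2.39, 2.59, 3.51, 4.28 and 2.35 in HFD MTX50. All treated mice lay below all untreated ones, mouse 4 only just, and in 11.4% of all genes these groups did not overlap. The difference was -1.35 ± 0.34 (SE), 2.56-fold lower (adjusted p = 0.0242, exact permutation p = 0.0159, where 5 against 4 mice allow 0.00794 at the least). A slide held 2 HFD and 2 HFD MTX50 mice, and there the difference was -1.89, beside -1.0 for the mice on other slides. The call was lost where slide was a fixed effect (adjusted p = 0.116) and in a fit of these 2 groups alone (0.0888). It was also lost with normexp background modelling (0.381) and without HFD mouse 2, 3 or 4 or HFD MTX50 mouse 5 (0.0513 to 0.0777). The HFD mice were spread by an SD of 0.06, the HFD MTX50 mice by 0.85.

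On LFD the fall of *Fabp2* was of like size. The 4 LFD mice stood at 3.61, 4.00, 4.09 and 3.46 and the 5 LFD MTX50 mice at 1.66, 2.36, 1.99, 2.96 and 1.78. The groups did not overlap, as in 29.1% of all genes. The difference was -1.64 ± 0.34 (SE), 3.11-fold (adjusted p = 0.00473, exact permutation p = 0.0159), and leaving out any array kept the call. Where slide was a random effect the adjusted p was 0.069, and neither the LFD nor the LFD MTX50 mice shared a slide with another group, so slide and group cannot be told apart in any comparison but HFD MTX50 vs HFD. The effects on the diets differed by 0.28, with an interval from -0.74 to 1.31 (adjusted p = 0.685).

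By diet alone *Fabp2* was 0.59 higher in HFD than in LFD (interval -0.18 to 1.35, adjusted p = 0.223). These groups did not overlap either, as in 40.3% of all genes, and the fit of these 2 groups alone gave an adjusted p of 0.0162, in a fit that pools no spread from the treated mice. In order of mean level *Fabp2* ran HFD, LFD, HFD MTX50, LFD MTX50.

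*Fabp1*, the principal fatty acid binding protein of hepatocytes, was steady in untreated livers and fell with methotrexate on LFD. It stood at 8.15, 8.19, 8.05 and 8.18 in LFD and at 6.43, 7.65, 7.41, 7.85 and 6.88 in LFD MTX50. Every treated mouse was below every untreated one, and in 29.1% of all genes these groups did not overlap. The difference was -0.90 ± 0.23 (SE), 1.86-fold (adjusted p = 0.0109, exact permutation p = 0.0238). Its call was kept without any 1 array and lost where slide was a random effect (adjusted p = 0.103) and with normexp background modelling (0.0648).

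On HFD *Fabp1* stood at 7.86, 8.13, 7.87 and 8.02 untreated and at 7.27, 7.51, 7.77, 8.07 and 7.51 treated. Treated mouse 4 reached the untreated range and the others were below it. The difference was -0.34 (interval -0.82 to 0.13, adjusted p = 0.307), and the effects on the diets differed by 0.55 (interval -0.13 to 1.23, adjusted p = 0.203). Diet alone gave -0.17 (interval -0.68 to 0.33, adjusted p = 0.601).

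*Fabp1* and *Fabp2* varied together over the mice. Of the 45 pairs of members theirs had the highest correlation, Pearson's r = 0.84 over 18 mice and 0.74 over the deviations from the group means, given as a description since the mice of a group share a treatment. HFD MTX50 mouse 4 was the highest treated HFD mouse in both genes. LFD MTX50 mice 1 and 5 were the lowest LFD MTX50 mice in both. Among the genes closest to *Fabp2* over the 17526 ranked were *Nlrc3* (r = 0.96) and *Acaa1b* (0.95), the last a peroxisomal thiolase of fatty acid oxidation, and 27 genes reached 0.9. The closest to *Fabp1* were *Impa2* (0.90), *Tjp3* (0.90) and *Plin2* (0.89), the last a coat protein of lipid droplets. *Acaa1b* was lower by a log2 difference of -2.28 in LFD MTX50 vs LFD (adjusted p = 0.00308) and -1.68 in HFD MTX50 vs HFD (adjusted p = 0.0257).

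**Figure D3:**
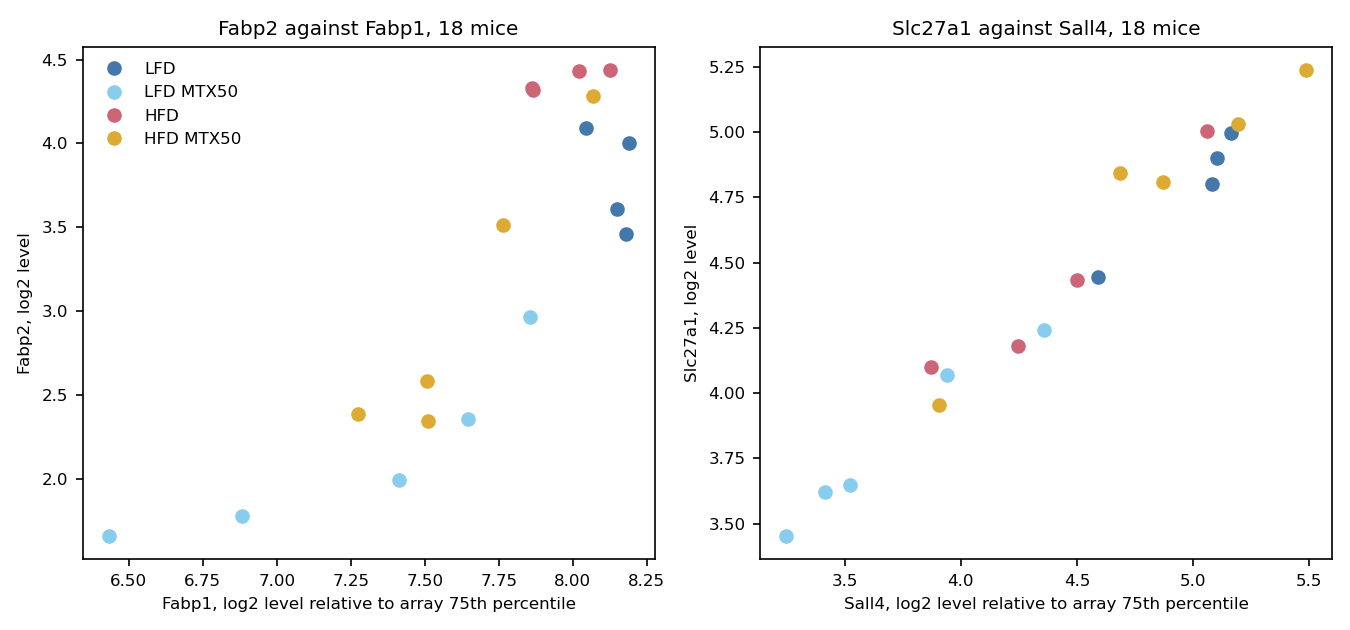
Levels in the 18 mice (log2 relative to the array's 75th percentile, both axes), coloured by group. Left, *Fabp2* (vertical) against *Fabp1* (horizontal), r = 0.84 over 18 mice, with the LFD MTX50 mice at the lower left. Right, *Slc27a1* (vertical) against *Sall4* (horizontal), r = 0.99, with the mice of all groups near 1 line.

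Promoters are shown for *Fabp1*, *Fabp2* and *Cd36*, some of the genes that moved. *Slc27a1* moved too, and its window is not printed. Each printed window is the 250 bases before a transcription start that RefSeq gives (assembly GRCm38.p6), 5′ to 3′ in the direction of the gene. For *Fabp1* and *Fabp2* this is the start of the gene, whereas the *Cd36* window lies before a start inside the gene's span. PPARα and PPARγ bind, with RXR, to direct repeats of AGGTCA with 1 base between them. Capitals mark, on either strand, AGGTCA or a pair of AGGNCA with 1 base between, where N is any base. *Fabp1* and *Fabp2* are shown because they moved together and *Cd36* because it led the rise with diet. *Fabp1* lies at chr6:71199629-71199878 (+ strand), *Fabp2* at chr3:122894822-122895071 (+ strand) and *Cd36* at chr5:17835897-17836146 (- strand).
Fabp1: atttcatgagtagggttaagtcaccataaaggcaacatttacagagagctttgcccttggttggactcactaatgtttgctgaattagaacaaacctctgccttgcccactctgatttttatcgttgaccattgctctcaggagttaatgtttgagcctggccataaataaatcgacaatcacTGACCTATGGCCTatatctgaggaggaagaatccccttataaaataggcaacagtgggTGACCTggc
Fabp2: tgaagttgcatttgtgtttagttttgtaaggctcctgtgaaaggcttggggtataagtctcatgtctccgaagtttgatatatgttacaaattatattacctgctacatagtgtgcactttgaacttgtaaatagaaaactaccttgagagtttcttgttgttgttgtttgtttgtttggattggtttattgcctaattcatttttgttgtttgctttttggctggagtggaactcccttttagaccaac
Cd36: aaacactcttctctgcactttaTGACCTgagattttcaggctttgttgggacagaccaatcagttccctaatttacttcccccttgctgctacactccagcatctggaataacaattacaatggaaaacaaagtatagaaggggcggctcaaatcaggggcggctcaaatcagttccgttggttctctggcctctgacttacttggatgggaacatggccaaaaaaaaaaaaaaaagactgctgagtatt
The pair of AGGNCA was present in 0.338% of the 32851 promoter windows searched and, of the members' windows, in that of *Fabp1* alone, on the reverse strand at positions -67 to -55 from the start. The stricter pair of AGGTCA with 1 base between was found in no member window and in 0.0335% of all. The single AGGTCA, which the longer matches contain, was present in 14% of all windows and in those of *Fabp1*, *Cd36* and *Slc27a2*. In *Fabp1* it was also found at -9 to -4. *Fabp2* held no match in these bases. A match is a description of the letters only, and 7 of 10 members had a window, the others being *Lpl*, *Fabp4* and *Fabp5*.

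*Slc27a1*, an acyl-CoA synthetase and transporter best known from muscle and adipose tissue, was the member whose response to methotrexate depended on diet. It stood at 4.90, 5.00, 4.80 and 4.44 in LFD and at 4.07, 3.65, 3.45, 3.62 and 4.24 in LFD MTX50. No treated mouse reached an untreated one, and in 29.1% of all genes these groups did not overlap. The difference was -0.98 ± 0.24 (SE), 1.97-fold lower (adjusted p = 0.0102, exact permutation p = 0.0159). It was kept without any 1 array and lost where slide was a random effect (adjusted p = 0.104) and with normexp background modelling (0.128).

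On HFD the levels were 5.00, 4.43, 4.10 and 4.18 untreated and 3.95, 4.84, 5.03, 5.24 and 4.81 treated. The treated mice lay both above and below the untreated ones, with treated mouse 1 the lowest of the 9. The difference was 0.34 (interval -0.17 to 0.86, adjusted p = 0.342). The treatment effect on HFD minus that on LFD was 1.32 ± 0.34 (SE, adjusted p = 0.0134), making *Slc27a1* the 1 member of 10 called for that difference, against 26.8% of all genes (8.66% with a higher value on HFD). It was past 2-fold too, as were 7.94% of all genes. Leaving out any array kept the call, with adjusted p from 0.0033 to 0.0361. Where slide was a random effect the adjusted p was 0.0679, and with normexp background modelling it was 0.725.

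HFD MTX50 exceeded LFD MTX50 in *Slc27a1* by 0.97 ± 0.23 (SE), 1.96-fold (adjusted p = 0.0142, exact permutation p = 0.0238), with HFD MTX50 mouse 1 inside the LFD MTX50 range. That call was lost in the fit of these 2 groups alone (adjusted p = 0.0643), where slide was a random effect (0.11) and with normexp background modelling (0.556). In untreated mice HFD differed from LFD by -0.36 (interval -0.90 to 0.19, adjusted p = 0.298).

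The pattern of the *Slc27a1* probe was shared by many others. 304 of 17526 genes correlated with it at 0.9 or more, whereas that number was between 0 and 27 for the other members. The closest were *Sall4*, a transcription factor of embryonic cells, *Piezo1*, a mechanically gated channel, and *Tsacc*, at r = 0.99, 0.99 and 0.98 over 18 mice and 0.98, 0.98 and 0.96 within groups. The mean level of *Sall4* was 4.99 in LFD and 4.42 in HFD, and with methotrexate 3.70 on LFD and 4.83 on HFD. Its log2 difference was -1.29 in LFD MTX50 vs LFD (adjusted p = 0.00739) and its effects on the diets differed by 1.70 (adjusted p = 0.0115). What these probes share was not tested, nor whether the *Slc27a1* probe reads the RNA of that gene alone.

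The other FATP members, *Slc27a2* and *Slc27a4*, were called in none of the comparisons by limma. *Slc27a2*, the very long chain acyl-CoA synthetase of liver peroxisomes and endoplasmic reticulum, ranged from 4.42 (LFD MTX50 mouse 5) to 5.28 (HFD MTX50 mouse 3). Its group means lay between 4.78 and 5.03, and its differences in the 4 comparisons of groups ran from -0.25 to 0.18 with adjusted p of 0.281 or more. HFD MTX50 mice 1 and 5, at 4.53 and 4.64, were low in *Slc27a2* as they were in *Fabp2*. The gene closest to it was *Acsl1* (r = 0.92), the major long chain acyl-CoA synthetase of liver.

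*Slc27a4*, the FATP of the intestine and skin, was the least variable member. It ran from -0.03 to 0.38 over all 18 mice, with SDs of 0.05 to 0.10 within groups. HFD MTX50 was -0.16 from LFD MTX50 (interval -0.32 to -0.003, adjusted p = 0.139, exact permutation p = 0.0238), and the other comparisons of groups gave -0.08 to 0.02. Its intervals exclude a change of 2-fold in each of these comparisons.

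*Lpl* showed no called difference on either probe. On the brighter probe the means were -1.63 ± 0.26 (SD, n = 4) in LFD, -1.71 ± 0.33 (n = 4) in HFD, -1.76 ± 0.71 (n = 5) in LFD MTX50 and -1.54 ± 0.95 (n = 5) in HFD MTX50. The differences lay between -0.13 and 0.22, and their 95% intervals reached from -1.0 to 1.04, so that a change of about 2-fold was at the edge of what they leave possible. HFD MTX50 mouse 1 was the highest of all on both probes, at -0.01 and -1.71, and LFD MTX50 mouse 4 was second on both, at -0.65 and -2.68. The probes of *Lpl* gave the same sign in every comparison.

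*Vldlr* was likewise not called. Its means rose in the order LFD (-1.73 ± 0.36, SD, n = 4), LFD MTX50 (-1.40 ± 0.56, n = 5), HFD (-1.14 ± 0.37, n = 4), HFD MTX50 (-1.02 ± 0.73, n = 5), with neighbours closer than their spread. HFD differed from LFD by 0.59 (interval -0.17 to 1.34, adjusted p = 0.219) on the brighter probe and by 0.44 (adjusted p = 0.39) on the other. HFD MTX50 mouse 5 was the lowest on both probes, at -2.21 and -6.15, and LFD mouse 2 was next on both. The probes differed in sign in HFD MTX50 vs HFD (0.12 and -0.06) and in HFD MTX50 vs LFD MTX50 (0.38 and -0.06), where neither was called.

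*Fabp4*, the binding protein of adipocytes and macrophages, spread widely within groups. It stood at -1.40, -1.06, -0.75 and -0.98 in LFD and at -0.95, -0.01, 1.08 and -0.28 in HFD. HFD mouse 3 was the highest of all 18 and HFD mouse 1 lay within the LFD range. The difference was 1.01 ± 0.49 (SE, interval -0.04 to 2.05, adjusted p = 0.129). Methotrexate gave -0.45 on HFD (adjusted p = 0.531) and 0.49 on LFD (adjusted p = 0.439), where LFD MTX50 mice ran from -1.71 to 0.42.

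Markers of other liver and non-liver cells were read beside these results. The log2 of the summed adipocyte markers (all 7 of 7 above background) was 0.34 to 0.84 in LFD, 2.24 to 2.89 in HFD, 0.95 to 1.65 in LFD MTX50 and 0.78 to 1.56 in HFD MTX50. It was thus highest in HFD, as the means of *Cd36* and *Fabp4* were. In HFD vs LFD *Cfd* was 5.99 higher and *Lep* 2.30 higher (log2 differences), 2 of the 3 adipocyte markers called higher, *Adrb3* fell by 1.01, and the list median was 0.15. *Adipoq* averaged -4.46 in LFD and -4.50 in HFD. The HFD sum was carried mostly by *Cfd*, whose mean level was -3.99 in LFD and 2.01 in HFD. Macrophage markers (8 of 8 kept) summed to 5.56 to 6.04 in LFD, 5.14 to 5.91 in HFD, 5.17 to 5.49 in LFD MTX50 and 5.83 to 6.36 in HFD MTX50. In LFD MTX50 vs LFD 2 of these 8 markers fell, *Cd68* by 0.94 and *Csf1r* by 0.54, while *Clec4f*, *Vsig4*, *Cd5l*, *Marco* and *Lyz2* had higher means in LFD MTX50 and were not called. The median difference of the list was 0.29.

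Skeletal muscle markers (4 of 4 kept) summed to between -3.07 and -1.75 in all mice. All were dim, with LFD means from -6.02 (*Myh4*) to -3.59 (*Tnnt3*). Their sum was higher in every LFD MTX50 mouse than in the LFD mice, groups that did not overlap in 29.1% of all genes. Of the 4 markers 2 were called higher there, against 17.6% of all genes. Erythroid markers (3 of 4 kept) summed to 3.98 to 4.50 in LFD and 3.37 to 4.49 in HFD, and to 0.02 to 0.65 in LFD MTX50 and 0.43 to 5.77 in HFD MTX50. *Hba-a1*, a globin, and *Alas2*, an enzyme of heme synthesis in red cell precursors, fell by 4.82 and 2.99 with methotrexate on LFD. These were 2 of the 3 erythroid markers kept, where 10.5% of all genes were called lower. The third, *Slc4a1*, was not called, with means of -1.72 in LFD and -1.44 in LFD MTX50. *Fabp1*, *Fabp2*, *Fabp5* and *Slc27a1* fell in that comparison too. Neutrophil markers (4 of 4 kept) summed to -0.84 to -0.14 in LFD and -0.90 to 0.58 in HFD, and with methotrexate to -0.92 to 2.65 on LFD and -0.45 to 5.58 on HFD. Their median difference with methotrexate was 1.55 on LFD, where *Ngp* was the 1 called, and 2.65 on HFD. Enterocyte markers (4 of 5 kept), from the tissue in which *Fabp2* is best known, summed to between 1.49 and 2.57 in all mice, with median differences with methotrexate of 0.29 on LFD and -0.28 on HFD. Hepatocyte markers summed to between 9.20 and 9.93 in every mouse, endothelial markers to between 3.92 and 4.94, stellate cell markers to between 3.70 and 4.53, markers of lipid-associated macrophages to between 0.05 and 2.57 and pancreatic acinar markers to between -1.58 and -0.69. The part of these cells in the members' differences was not tested.

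The genes around the members were read from 6 lists. Of 9 genes known to rise with PPARγ in fatty liver, 5 rose in HFD vs LFD, where 18% of all genes rose, with a list median of 1.11 (0.08 over all genes). In HFD MTX50 vs HFD 6 fell, as 6.13% of all genes did, with a median of -0.95 (-0.04), and in LFD MTX50 vs LFD 4 fell, as 10.5% of all genes did, with a median of -0.48 (0.11). The list was drawn up with results of these livers known, so its direction is not independent evidence, and the first pair of comparisons shares the HFD mice and the outer pair the LFD mice. *Cidea*, a lipid droplet fusion protein, was 4.17 higher in HFD than in LFD and fell by 3.36 in HFD MTX50 vs HFD. *Mogat1*, which makes diacylglycerol, was 2.33 higher in HFD and fell by 1.88 with methotrexate on HFD and by 1.93 on LFD, and it was among the 3 genes closest to *Cd36* (r = 0.88), with *Osbpl3* (0.88) and *Prss52* (0.87).

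Among 15 regulators, 3 rose and 4 fell in HFD vs LFD, where 18% of all genes rose and 10.4% fell (median -0.27, beside 0.08 over all genes). *Pparg* itself was 0.72 ± 0.14 (SE) higher in HFD than in LFD (adjusted p = 0.0043) and changed by -0.70 ± 0.13 in HFD MTX50 vs HFD (adjusted p = 0.00902). *Ppargc1a*, a coactivator of oxidative genes, fell by 1.20 in HFD vs LFD and was 0.76 higher in HFD MTX50 than in HFD. In HFD vs LFD *Mlxipl* (ChREBP), *Hnf4a* and *Nr1h3* (LXRα) changed by -0.77, -0.55 and -0.45. On LFD 2 regulators rose and 2 fell with methotrexate, of which *Nfe2l2* (NRF2) at -0.72 and *Nr1i2* (PXR) at 0.53 moved furthest. On HFD 2 rose with it, *Ppargc1a* and *Hnf4a*, and *Pparg* fell.

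Of 17 genes of acyl-CoA activation and binding, the step that follows uptake, 3 rose and 5 fell in LFD MTX50 vs LFD, where 17.6% of all genes rose and 10.5% fell (median -0.35, beside 0.11 over all genes). *Acsl5*, a long chain acyl-CoA synthetase, changed by -1.06 ± 0.24 (SE, adjusted p = 0.00596) and *Dbi*, the acyl-CoA binding protein, by -0.71 ± 0.15 (adjusted p = 0.00515). *Acsl6* rose by 0.78, and *Acbd5* and *Acsm1* fell by 0.69 and 0.54. In HFD vs LFD 3 rose and 3 fell (median -0.05), led by *Acsl6* at 0.99 and *Acsl4* at -0.64. *Acsl6* was dim, with a mean of -5.92 in LFD and -4.94 in HFD.

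The control of lipoprotein lipase was measured on 15 genes. In HFD vs LFD 2 rose and 2 fell (median 0.10), a share close to the 28.3% of all genes called. *Gpihbp1*, which carries the lipase to the vessel wall, was 0.45 higher in HFD and fell by 0.41 in HFD MTX50 vs HFD, and *Angptl8*, an inhibitor of the lipase, fell by 1.22 in HFD vs LFD. *Lipg*, endothelial lipase, was 0.78 higher in HFD but dim, with a mean of -4.86 in LFD and -4.09 in HFD. *Furin* fell by 0.41 in HFD vs LFD and was 0.50 higher in HFD MTX50 than in HFD. In LFD MTX50 vs LFD *Apoc4* was the 1 gene called, at 0.41. *Lpl* itself was called in none of these comparisons.

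Of 14 lipoprotein and fatty acid receptors 12 were kept, with *Lrp8* and *Cav1* below the filter. In HFD vs LFD *Sort1* and *Ffar1* rose, by 0.67 and 0.53, and *Lsr* and *Scarb1*, receptors for remnants and for HDL, fell by 1.10 and 0.68 (median 0.05), so that 4 of 12 were called, beside 28.3% of all genes. With methotrexate *Scarb1* was 0.63 higher on HFD, and *Ffar1*, *Lrp1* and *Sort1* were 0.52, 0.42 and 0.42 higher on LFD. Of 11 relatives of the FABP and FATP genes 9 were kept, without *Slc27a6* and *Pmp2*. *Fabp6* and *Fabp12* rose in HFD vs LFD by 0.51 and 0.43, *Fabp7* rose by 1.05 and *Fabp12* fell by 0.51 in HFD MTX50 vs HFD, and *Fabp6* rose by 0.62 in LFD MTX50 vs LFD. *Fabp6* and *Fabp12* were dim, with means of -4.40 and -2.71 in LFD and -3.90 and -2.28 in HFD. *Slc27a5*, the liver's bile acid CoA synthetase, differed by -0.54 in HFD MTX50 vs LFD MTX50.

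**Figure D4:**
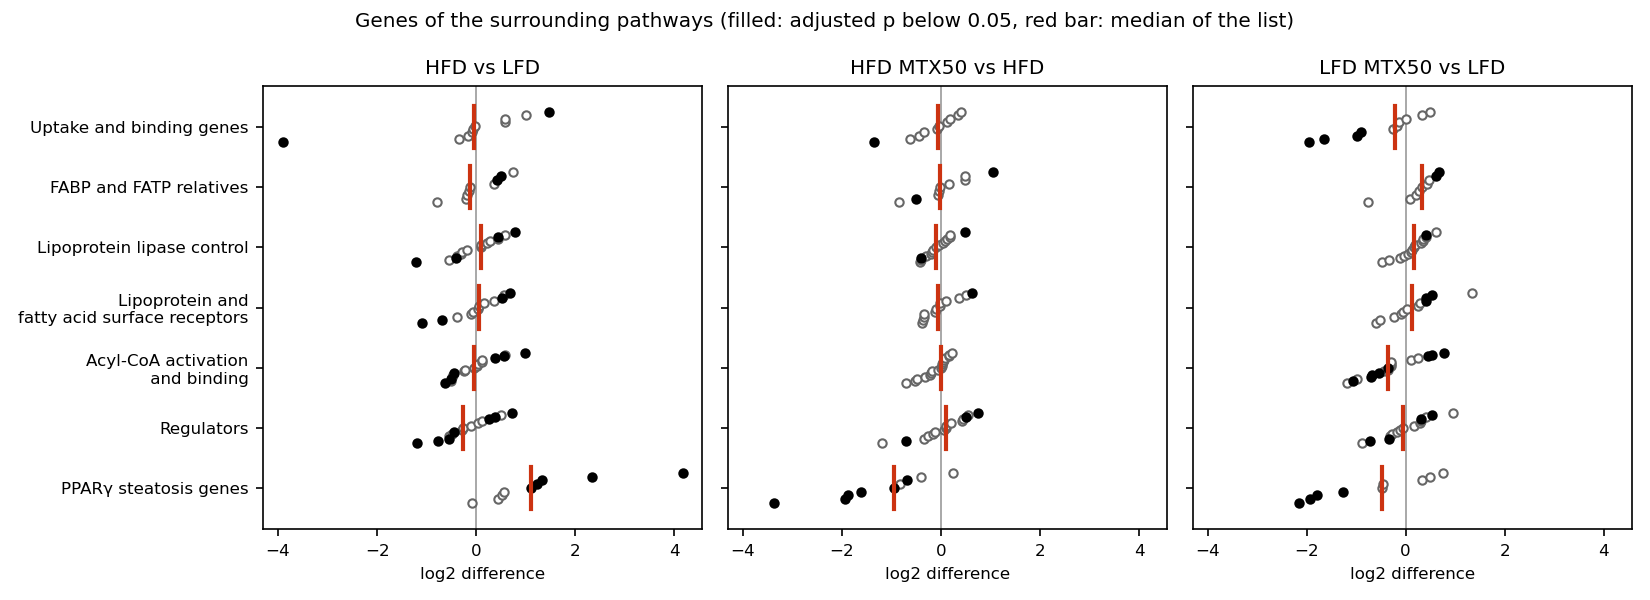
Differences in the 10 members and in 6 lists of genes around them (rows) with diet in untreated mice and with methotrexate on each diet (panels, horizontal axes in log2 with the same scale). Each dot is 1 gene, filled where the adjusted p was below 0.05, and the red bar is the median of the row. The PPARγ steatosis genes have medians of 1.11, -0.95 and -0.48, and the medians of the uptake and binding genes are -0.04, -0.06 and -0.21.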

How the data were processed

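Liver RNA of 18 mice was hybridised to one-colour Agilent arrays, 1 per mouse, on 6 slides scanned on 1 day. The authors read them with Agilent Feature Extraction (version 10.7.3.1 in the submitters' notes), which per the file headers removed local background and spatial trends, so the deposited values are processed intensities on a linear scale, not normalized between arrays. The labels name Trizol with RNeasy and a low-input amplification kit, the methods RNeasy and Quick Amp. The methods name GeneSpring for the array analysis and give no normalization.

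Here log2 intensity was reduced by each array's 75th percentile over non-control spots. Outlier spots (124 to 294 per array) were left out, no spot was saturated, and repeated spots were averaged. Probes well above background on at least 4 arrays were kept (35735 of 39429, of 19597 genes), of which 344 lack a value on some array. The number of arrays limits the precision. Probes were named through a RefSeq table (GRCm38.p6) by accession, which matched 28025 probes. The arrays were laid out on another assembly, so gene coordinates other than those of the promoter table are not given.

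limma 3.58.1 in R 4.3.3 fitted 1 model of the 4 groups (prior degrees of freedom 2.77), and p was adjusted by Benjamini-Hochberg over the kept probes. A gene was read on its brightest probe. Exact two-sided permutation tests compared group means. The code was tested on simulated data. Labels do not state whether mice of a group shared a cage or litter. The series' value table holds background-subtracted intensities of the same scans (within 0.498%) and served as an alternative. Named genes were every member, at most 5 called genes of each list and comparison by size, the 3 genes closest to each called member by Pearson's r and markers set beside a result. Some genes that this rule names are not reported here. The closest gene of *Slc27a2* was added after its value was seen. The members, lists, tests and alternatives were chosen with earlier results of these data known.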

Additional observations from a re-analysis of the deposited data

Results flagged for a closer look

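Each of the 12 member probes was put to Dixon's gap test in each of the 4 groups, save *Fabp5* in LFD with its 3 values. The test flags about 5% of groups by chance. It flagged 2 mice as apart from the rest of their group, which is about that share. HFD mouse 3 had an *Lpl* level of -1.22 (brighter probe) and the other HFD mice -1.94 to -1.83. HFD MTX50 mouse 3 had a *Fabp4* level of -1.73 and the other HFD MTX50 mice -0.29 to 0.11. Neither gene was called in any comparison.

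The effect of methotrexate on *Slc27a1* differed between the diets by 1.32 on the log2 scale (limma interaction, adjusted p = 0.0134). Of all genes 26.8% were called for this difference. The call was lost where slide was a random effect (adjusted p = 0.0679) and with normexp background modelling (0.725). On LFD 5 of 5 treated mice lay below all untreated mice, and in 29.1% of all genes these groups did not overlap. On HFD the treated mice lay both above and below the untreated ones, and the difference of 0.34 was not called (limma, adjusted p = 0.342).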

How the results depend on the processing

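Across 16 planned changes of processing and the omission of each array, no called member reversed. Of the member results 1541 kept their direction and call, 48 lost the call, 10 gained it and 36 that were never called changed sign. Most of the 1541 were uncalled and stayed so, and only a called result can lose its call. Called results kept their call in from 7 of 14 changes of processing (*Fabp5*, LFD MTX50 vs LFD) to 14 of 15 (*Fabp2*, LFD MTX50 vs LFD). Leaving out 1 array gave 2 members called in HFD vs LFD, 0 to 1 in HFD MTX50 vs HFD, 3 to 4 in LFD MTX50 vs LFD, 1 to 4 in HFD MTX50 vs LFD MTX50 and 1 to 2 for the difference between the treatment effects. Normexp background modelling, run on median signals, called 0, 0, 1, 0 and 0 members in that order (4, 1, 4, 4 and 2 at an unadjusted p below 0.05). It moved the median of all genes to 0.375, 0.391, 0.467, 0.343 and -0.116, while quantile normalization and centring on the median brought the 0.105 of LFD MTX50 vs LFD to about 0. With slide as a random effect the counts were 1, 1, 0, 0 and 0 (2, 1, 4, 2 and 1 unadjusted), and as a fixed effect 0 (2) in HFD MTX50 vs HFD. Fits of only the 2 groups compared gave 0 (2) in HFD MTX50 vs HFD and 0 (4) in HFD MTX50 vs LFD MTX50, and the methods' t-test, adjusted, gave 0 (1) and 0 (3), with 2 in LFD MTX50 vs LFD. Adding a 2-fold limit to the adjusted p left 2 in LFD MTX50 vs LFD and 1 in HFD MTX50 vs LFD MTX50, and an unadjusted p up to 0.015 with 2-fold gave 2 in LFD MTX50 vs LFD. Median centring gave 2 for the difference between treatment effects (*Fabp5* added). Keeping only probes above background on all arrays gave 1 in HFD vs LFD, where *Fabp5* has no value because its marked spot was not counted. The cause of these losses was not tested. With the replicate number as a block the counts were 2, 1, 3, 2 and 1, and *Fabp5* in LFD MTX50 vs LFD lost its call (-1.96, adjusted p = 0.0757). In their deviations from the group means, same-numbered mice of different groups correlated at -0.31 to 0.25 and differently numbered ones at -0.26 to 0.35. The numbers thus gave no sign of pairing, though such a check cannot exclude it.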
